A study of Mus musculus with 24 samples.

Results

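The genes that encode the chains of collagens were followed through 8 groups of mouse endothelial cells, amniotic cells and amniotic cells reprogrammed towards endothelium. They were taken by name, as every gene whose current mouse symbol reads Col, a number, the letter a and a number. This gave 42 genes of the 22282 genes in the expression tables, 11 fibrillar, 8 of basement membranes and 23 other collagens. The rule used no measured value, although it was set with earlier results of these data known. RefSeq lists 44 such symbols, of which Col6a3 and Col12a1 were not analysed here.

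Poly(A) RNA of 24 libraries was sequenced as paired reads of 51 bp, 3 libraries in each of 8 groups, all from C57BL/6J mice, and each library came as a table of FPKM, fragments per kilobase of transcript scaled to the library. MACs were amniotic fluid cells of embryos collected at E11.5 to E13.5, and each MAC replicate was an independently isolated culture from mixed embryos. RACVECs were MACs that carried lentiviruses for the Ets transcription factors Etv2, Erg and Fli1, and Akt-RACVECs and Akt-MACs also carried constitutively active, myristoylated Akt, with the Ets and Akt cDNAs all driven by the PGK promoter. Sox17-RACVECs were RACVECs infected with a Sox17 lentivirus and selected with puromycin. Akt-LECs and Akt-liver ECs were lung and liver endothelial cells (ECs) caught on anti-CD31 beads, transduced with the same Akt lentivirus, cultured and purified again by flow cytometry for VEcad and CD31. LSECs were liver ECs sorted straight from the organ, with no culture and no virus, so that culture and Akt cannot be told apart in a comparison with them. Cells in conversion were kept in EC medium on fibronectin with VEGF-A and SB431542, an inhibitor of TGF-β receptors, whereas MACs were grown in AmnioMAX, so that medium and inhibitor cannot be told apart from the Ets factors where the 2 are compared. The ECs for Akt-LECs and Akt-liver ECs were plated in EC medium, whose recipe includes SB431542. The study describes the lung ECs and the sorted liver ECs as adult. The study treats its libraries as separate isolates, but the labels name no culture or animal for each library outside the MACs, and the p-values measure the spread between these libraries.

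Collagen chains wind around each other into a helix inside the endoplasmic reticulum, after prolines and lysines have been hydroxylated, and are then secreted, trimmed and cross-linked. Fibrillar collagens such as types I, III and V build the tensile fibrils of connective tissue and are made chiefly by fibroblasts and other mesenchymal cells. Type IV collagen forms the sheet-like network of basement membranes, on which the endothelium of most vessels rests, and the types XV and XVIII are proteoglycans that associate with it. The sinusoids of the liver are unusual among vessels in that their endothelium lacks an organised basement membrane.

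Col4a1 and Col4a2, which encode the α1 and α2 chains of type IV collagen, were the only chains called in 3 of the comparisons below, and share a promoter region. In mm9, Col4a1 lies on the minus strand at chr8:11198423-11312826 and Col4a2 on the plus strand at chr8:11312805-11449287, so that the annotated genes point away from each other and overlap by 22 bases. The library kit did not mark strand, and reads within that overlap could not be told apart. The windows from 250 bases before to 50 bases after the start site are shown for both, since the genes moved together, and for both start sites of Col18a1, the collagen with the largest difference between cultured and freshly sorted liver ECs. The sequences are those of RefSeq on GRCm38.p6, written 5′ to 3′ on the strand of the gene. The windows are chr8:11312777-11313076 (minus strand) for Col4a1, chr8:11312555-11312854 (plus strand) for Col4a2, and chr10:77166481-77166780 and chr10:77113656-77113955 (both minus strand) for the upstream and downstream start of Col18a1. Capitals mark the matches to CCAAT and CCGCCC, on either strand.
Col4a1: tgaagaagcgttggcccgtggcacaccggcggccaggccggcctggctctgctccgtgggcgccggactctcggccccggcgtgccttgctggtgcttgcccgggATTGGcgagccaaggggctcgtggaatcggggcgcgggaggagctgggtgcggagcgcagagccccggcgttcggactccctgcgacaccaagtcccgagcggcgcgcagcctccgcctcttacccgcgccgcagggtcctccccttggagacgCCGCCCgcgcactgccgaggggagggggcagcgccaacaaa
Col4a2: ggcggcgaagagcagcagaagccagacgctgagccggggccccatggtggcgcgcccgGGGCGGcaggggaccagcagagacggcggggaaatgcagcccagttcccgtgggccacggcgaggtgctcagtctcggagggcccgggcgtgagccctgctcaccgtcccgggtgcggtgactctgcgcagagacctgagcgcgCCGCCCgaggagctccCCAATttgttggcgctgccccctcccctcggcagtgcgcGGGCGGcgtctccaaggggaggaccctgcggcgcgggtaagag
Col18a1 upstream: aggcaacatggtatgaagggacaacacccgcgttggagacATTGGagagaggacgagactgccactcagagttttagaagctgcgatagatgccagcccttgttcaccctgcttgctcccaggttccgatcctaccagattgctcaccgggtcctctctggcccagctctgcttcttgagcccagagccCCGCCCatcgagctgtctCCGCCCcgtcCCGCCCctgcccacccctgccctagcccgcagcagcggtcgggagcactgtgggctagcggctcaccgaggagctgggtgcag
Col18a1 downstream: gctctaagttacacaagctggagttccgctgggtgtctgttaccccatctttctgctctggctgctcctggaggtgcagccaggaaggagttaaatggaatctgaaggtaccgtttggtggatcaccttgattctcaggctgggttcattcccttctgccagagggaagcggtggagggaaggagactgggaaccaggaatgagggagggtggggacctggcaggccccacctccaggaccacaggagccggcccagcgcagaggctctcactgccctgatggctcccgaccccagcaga

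The start sites of Col4a1 and Col4a2 lay 21 bases apart, and their windows shared 78 bases. The Col4a1 window held 1 CCAAT and 1 CCGCCC, the Col4a2 window held 1 CCAAT and 3 CCGCCC, and 1 of the CCGCCC matches lay in the shared stretch. CCAAT was present in 37.4% and CCGCCC in 35.7% of the 32851 windows of the same length, and in 35.1% and 62.2% of the 37 windows of the 34 collagen genes that had one. TATAAA was absent from the 4 windows printed here, and was present in 13.6% of all windows and 13.5% of the collagen windows. CCGGAA, a single form of the sites with the Ets core letters GGAA, was present in 14.9% of all windows and in 0 of the 37. Other forms with GGAA, such as AGGAAG in the downstream Col18a1 window, were not counted, so this does not show a lack of Ets core letters. ACAAT, the core letters bound by Sox factors, was present in 31.0% and 5.41%. Every motif was searched on both strands, and no marked match overlapped another. A match is a description of the letters only, and the absence of one says nothing about binding by a factor elsewhere or at another form of its site. The upstream Col18a1 window held 1 CCAAT and 3 CCGCCC, and the downstream window, 52825 bases away, held neither. The share of G and C was 74.0% in the Col4a1 window and 73.7% in the Col4a2 window, against a median of 52.7% over all windows. Other members also lie near each other in mm9, with Col6a2 at chr10:76058507-76086375, Col6a1 at chr10:76171537-76188913 and Col18a1 at chr10:76514923-76629293, all on the minus strand, and with Col3a1 at chr1:45368383-45406551 on the plus strand beside Col5a2 at chr1:45431166-45560127 on the minus strand.

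Of the 24 libraries, 3 stood apart in ways that touch the collagens. Akt-LEC 1 and Akt-liver EC 1 were each other's nearest library over all genes (r = 0.949) and listed the fibroblast marker Pdgfra at an FPKM of 343 and 66.0, against at most 1.66 in the other 4 libraries of cultured ECs. Their macrophage markers summed to 1330 and 920, against at most 18.6 in those 4, and their epithelial markers to 175 and 1546.5, against at most 29.8. The mesenchymal markers as a list summed to 3399, 40.9 and 177 in Akt-LECs 1 to 3. In Akt-liver ECs they summed to 2202, 2378 and 2754, so the list as a whole did not set Akt-liver EC 1 apart. The library labelled Sox17-RACVEC 2 listed Etv2 at 0, where the other Sox17-RACVEC libraries had 458 and 378, and listed Erg at 387, where they had 4.49 and 0. Its nearest library was Akt-RACVEC 3 (r = 0.970). Erg, although transduced, was at 3.91, 13.8 and 0.9 in the RACVECs and at 395, 1002 and 418 in the Akt-RACVECs. Counts of called collagen genes that these libraries enter are given with and without them. The 3 were picked after the data were seen, so adjusted p-values from fits without them may be too low. The markers of endothelium summed to between 8.11 and 28.2 in MACs and to between 1476 and 2718 in RACVECs, and to at least 4045 in every library of the Akt-RACVECs, Sox17-RACVECs, cultured ECs and LSECs.

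Col4a1 was the highest chain by FPKM in 12 of the 24 libraries, Col18a1 in 5, the type I chains Col1a1 and Col1a2 in 2 each, and Col23a1, Col3a1 and Col5a2 in 1 each. FPKM is scaled by transcript length, so these levels can be set against each other. The collagens together made up between 0.0653% and 0.620% of the summed FPKM of a library. Fibrillar chains made up between 32.6% and 54.7% of the collagen FPKM in MACs, between 24.9% and 58.3% in Akt-MACs and between 37.2% and 50.2% in RACVECs. In Akt-RACVECs the share was between 0.662% and 3.44%, below every library of those 3 groups, while basement membrane chains took between 88.1% and 97.9%. Sox17-RACVECs had a fibrillar share between 0.769% and 13.6%, with the lowest value in the library labelled Sox17-RACVEC 2, and LSECs one between 2.86% and 8.64%. Akt-LEC 1 had 40.3% and Akt-liver EC 1 had 19.4%, against between 0.451% and 5.41% in the other 4 libraries of cultured ECs.

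**Figure D1:**
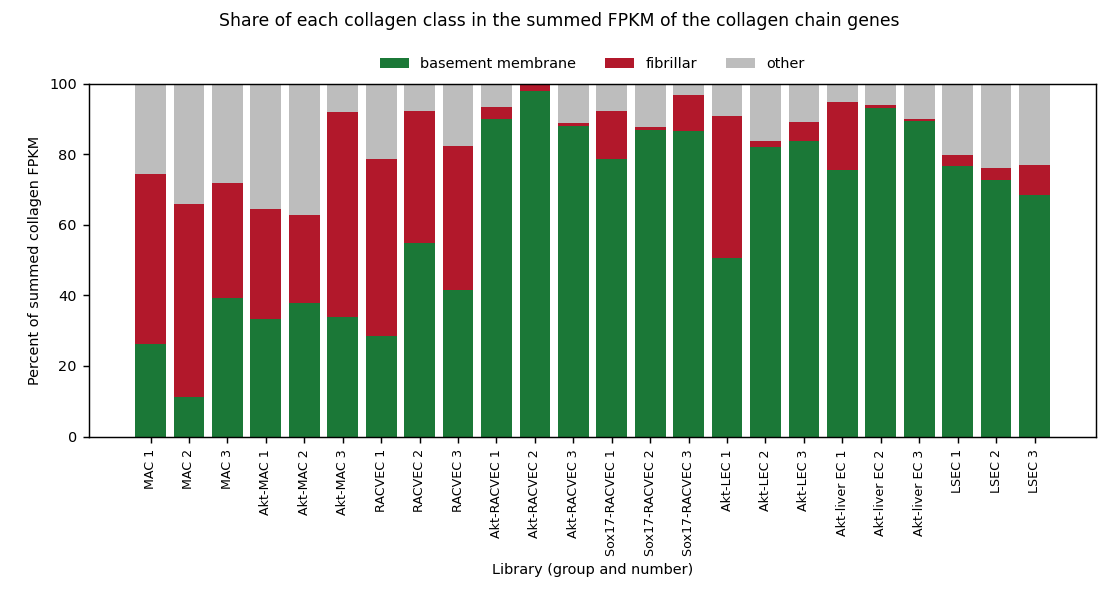
Share of the summed collagen FPKM taken by fibrillar, basement membrane and other chains, in percent, as 1 stacked bar for each of the 24 libraries. Fibrillar chains take at most 3.44% in the Akt-RACVEC libraries and at least 24.9% in those of MACs, Akt-MACs and RACVECs.

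In absolute terms, the fibrillar sum was between 68.8 and 169 FPKM in Akt-RACVECs, between 1057 and 4608 in RACVECs and between 1927 and 5721 in MACs. The basement membrane sum ran the other way, from 4428 to 9166 in Akt-RACVECs, 1562 to 2607 in RACVECs and 1053 to 2776 in MACs. In bulk samples, fewer cells that make a chain and less RNA of it per cell cannot be told apart. The marker genes of mesenchymal cells moved with the fibrillar sum across the 24 libraries (Pearson r = 0.656, Spearman rho = 0.741, on log2 values). Without the 3 libraries that stood apart these were 0.629 and 0.721 over 21 libraries. The points share library scaling and group, and the coefficients are descriptions only. The mesenchymal markers summed to between 5.73 and 428 FPKM in Akt-RACVECs, between 2179 and 4697 in RACVECs and between 3006 and 7447 in Akt-MACs, and their part in the fibrillar difference was not tested.

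**Figure D2:**
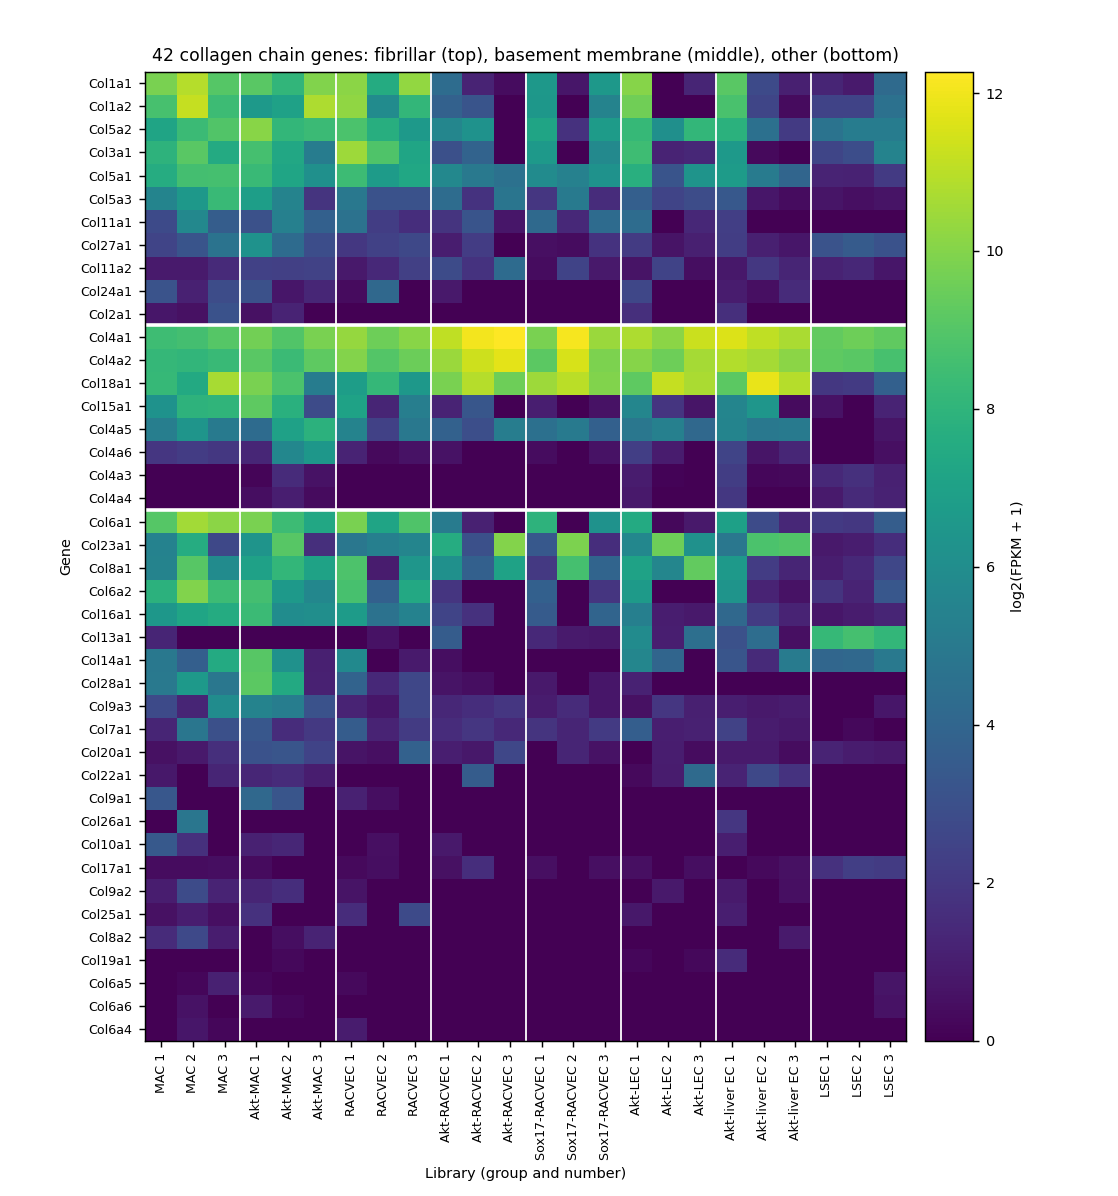
Level of each of the 42 collagen genes (rows, fibrillar at the top, basement membrane in the middle and others at the bottom) in each of the 24 libraries (columns, by group), as the colour of log2(FPKM + 1). Col4a1 and Col4a2 are high in every library, and most fibrillar genes are low in the Akt-RACVECs and in 4 of the 6 libraries of cultured ECs.

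Of the 42 genes, 30 had a mean of at least 1 FPKM over the 24 libraries and were tested, 10 of 11 fibrillar, 6 of 8 basement membrane and 14 of 23 others. Differences between groups were fitted by limma on log2(FPKM + 1) values, and a gene was called at a Benjamini-Hochberg adjusted p below 0.05 over all 14964 genes tested together with a log2 fold change past 1 or -1. Fold changes are on that scale, which understates the change of low genes. The same fit serves all comparisons. Several of them share libraries of MACs, RACVECs, Akt-RACVECs or Akt-LECs, so their results are not independent of each other. Whether the libraries of compared groups overlapped is given below as a description only. The share of all genes without such overlap was not counted, so a lack of overlap cannot be set against a background and does not replace the test.

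Among the comparisons of amniotic cells, collagen genes were called only between Akt-RACVECs and Akt-MACs, which both carry Akt and of which only the Akt-RACVECs carry the Ets factors. The study gives no medium for the Akt-MACs, so that medium and inhibitor may differ between these groups as well. Col4a1 and Col4a2 rose, and 13 chains fell, among them the type I chain Col1a1, the type V chain Col5a2 and the type VI chains Col6a1 and Col6a2. Of the 30 genes tested, 2 were called higher and 13 lower, against 6.15% higher and 13.4% lower of all genes tested, and the median log2 fold change of the 30 was -2.27 against -0.09 over all genes. By class, 3 of 10 fibrillar genes were called lower, 2 of 6 basement membrane genes higher and 3 lower, and 7 of 14 other collagens lower.

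Among the basement membrane genes, Col4a1 had an FPKM of 2172, 4247 and 4935 in Akt-RACVECs and 797, 491 and 883 in Akt-MACs, means of 3785 ± 1438 (SD, n = 3) and 723 ± 206 (SD, n = 3). Its log2 fold change was 2.35 ± 0.47 (SE, adjusted p = 0.00217). Col4a2 had 1352, 2589 and 3442 against 553, 333 and 602, a log2 fold change of 2.25 ± 0.47 (SE, adjusted p = 0.00289). The groups did not overlap in either gene. Both calls held in every alternative limma fit. A second criterion follows the study's methods, which compare averaged FPKM, and asks for a log2 ratio of group means past 1 or -1 with an unadjusted two-sided p below 0.05. The addition of 1 FPKM to each mean was chosen here. By it 0 of 40 collagen genes above 0 in these libraries were called in either direction, against 3.06% higher and 4.25% lower of all genes. Col4a5 and Col4a6, a second head-to-head pair of type IV chains on the X chromosome that is not particular to endothelium, went the other way. Col4a6 had an FPKM of 0.53, 0 and 0 in Akt-RACVECs against 1.49, 50.7 and 88.3 in Akt-MACs, a log2 fold change of -4.29 ± 0.89 (SE, adjusted p = 0.00288), with no overlap. Col4a5 had 13.1, 6.70 and 36.3 against 18.6, 129.7 and 232, with -2.40 ± 0.83 (SE, adjusted p = 0.0423), and here the highest Akt-RACVEC library lay above the lowest Akt-MAC library. Col15a1, whose product sits between basement membrane and stroma, had 1.36, 8.66 and 0 against 594, 221 and 5.87, a log2 fold change of -5.09 ± 1.75 (SE, adjusted p = 0.0417), and its groups overlapped through Akt-MAC 3. Col18a1, whose product releases endostatin, had 889.5, 1915 and 753 against 880.0, 441 and 34.4 and was not called (log2 fold change 2.18, adjusted p = 0.127).

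Of the 10 fibrillar genes, 9 had a negative log2 fold change, of which 3 passed the test. Col1a1 (chr11:94797538-94814356 in mm9), the major chain of type I collagen, had an FPKM of 19.2, 1.35 and 0.31 in Akt-RACVECs and 556, 271 and 971 in Akt-MACs, a log2 fold change of -7.06 ± 2.26 (SE, adjusted p = 0.0309). Col5a2, a chain of the type V collagen that sits in the core of fibrils, had 48.3, 74.2 and 0 against 1086, 277 and 332, with -4.91 ± 1.56 (SE, adjusted p = 0.03). Col27a1, a fibrillar chain known from cartilage, had 1.00, 3.58 and 0 against 76.1, 18.3 and 6.38, with -3.41 ± 0.76 (SE, adjusted p = 0.00431). In these 3 genes every Akt-RACVEC library lay below every Akt-MAC library. The same held for the partner chain Col1a2, at 12.8, 8.22 and 0 against 95.2, 129 and 1756 (adjusted p = 0.087), for Col3a1, the single chain of type III collagen, at 7.01, 14.0 and 0 against 396, 163 and 34.3 (adjusted p = 0.0983), and for Col5a1, at 51.9, 29.8 and 23.1 against 318, 145 and 70.9 (adjusted p = 0.082). These 3 genes did not pass the test with all libraries in the fit.

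Among the other collagens, Col6a1 and Col6a2 encode chains of type VI collagen, which forms beaded filaments around cells. Col6a1 had an FPKM of 33.1, 1.16 and 0 in Akt-RACVECs against 904, 341 and 162 in Akt-MACs, a log2 fold change of -6.46 ± 1.98 (SE, adjusted p = 0.0247). Col6a2 had 2.74, 0 and 0 against 388, 98.8 and 50.2, with -6.34 ± 1.72 (SE, adjusted p = 0.0137). Col16a1 and Col14a1 encode collagens that decorate the surface of fibrils. Col16a1 had 4.69, 2.38 and 0 against 333, 62.3 and 65.2, with -5.38 ± 1.17 (SE, adjusted p = 0.00372), a call that held in every alternative limma fit. Col14a1 had 0.38, 0 and 0 against 535, 73.2 and 1.12, with -5.30 ± 1.75 (SE, adjusted p = 0.035). Col28a1, best known from Schwann cells of peripheral nerve, had 0.57, 0.39 and 0 against 576, 176 and 1.15, with -5.54 ± 1.26 (SE, adjusted p = 0.00504). None of these 5 genes overlapped between the groups, although Akt-MAC 3 lay near the Akt-RACVECs in Col14a1 and Col28a1. Of the type IX chains of cartilage, Col9a3 had 1.56, 2.07 and 2.87 against 43.3, 35.4 and 7.39, with -2.93 ± 0.85 (SE, adjusted p = 0.0197). Col9a1 was listed at 0 in every Akt-RACVEC library and at 16.6, 8.30 and 0 in Akt-MACs, was called lower (adjusted p = 0.0376) and has no fold against a group at 0. Its mean over the libraries outside the Akt-MACs was 0.506 FPKM, so that it reached the mean of 1 FPKM needed for the test only through the group where it was high, and the number called lower was 12 without it.

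**Figure D3:**
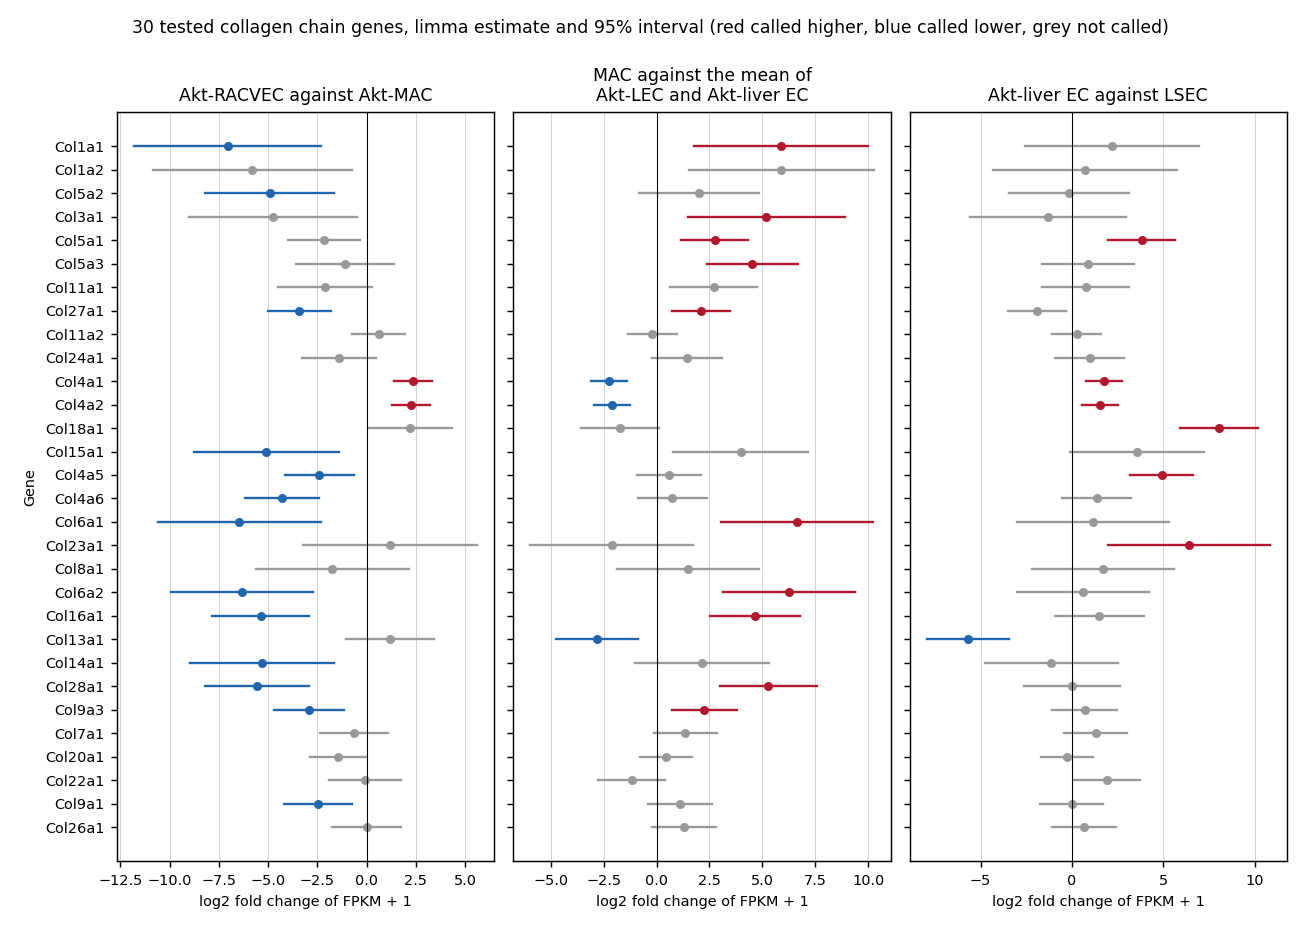
Log2 fold change on the log2(FPKM + 1) scale with its 95% interval for the 30 tested collagen genes in Akt-RACVECs against Akt-MACs, MACs against the cultured ECs (Akt-LECs and Akt-liver ECs averaged), and Akt-liver ECs against LSECs, with called genes in red (higher) or blue (lower) and others in grey. Col4a1 and Col4a2 are called in all 3 panels.

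The number called lower in this comparison rested on single libraries. It was 5 without Akt-MAC 1 (11.2% of all genes in that fit) and 5 without Akt-MAC 2 (7.51%), 8 without Akt-RACVEC 1 (11.7%), 7 without Akt-RACVEC 2 (9.72%) or Akt-RACVEC 3 (10%), and 3 when only the 2 compared groups were fitted (4.1%). Without Akt-LEC 1, Akt-liver EC 1 and the library labelled Sox17-RACVEC 2, which enter only through the common estimate of the spread, 2 genes were called higher and 14 lower, against 6.83% and 14.8% of all genes. Col1a2 (log2 fold change -5.80 with an adjusted p of 0.00495), Col3a1 (-4.74 with an adjusted p of 0.00552) and Col5a1 (-2.14 with an adjusted p of 0.0367) were then called and Col4a5 and Col9a1 were not. The marker genes of macrophages summed to 847, 10189 and 32105 FPKM in Akt-MACs and to between 5.35 and 151 in Akt-RACVECs, and their part in these differences was not tested.

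RACVECs against MACs sets cells with the 3 Ets factors, in the medium with the inhibitor, beside the cells they came from. Of the 30 genes, 6 had a positive and 24 a negative log2 fold change, with the type IV chains Col4a1 and Col4a2 at the top, but 0 genes were called in either direction by limma, against 1.36% higher and 1.35% lower of all genes. At an unadjusted p below 0.05 with a log2 fold change past 1 or -1, 2 genes were higher and 2 lower, against 5.45% and 7.15% of all genes. By the criterion of the study's methods 1 of 39 collagen genes was higher (Col4a1) and 1 lower (Col4a6), against 1.35% and 1.4% of all genes. Col4a1 had an FPKM of 1296, 761 and 1075 in RACVECs against 349, 384 and 519.8 in MACs, a log2 fold change of 1.31 ± 0.47 (SE, adjusted p = 0.132). Col4a2 had 1020.4, 512 and 742 against 289, 273 and 320.0, with 1.31 ± 0.47 (SE, adjusted p = 0.133). Neither overlapped between the groups. Of the lower pair, Col5a3, a chain of type V collagen, had 28.7, 7.57 and 7.47 against 44.8, 92.1 and 319 (log2 fold change -3.10, adjusted p = 0.159). Col28a1 had 14.0, 1.64 and 5.06 against 30.7, 95.2 and 28.2 (log2 fold change -2.85, adjusted p = 0.219), and neither of this pair overlapped. The type I and type III chains overlapped, with Col1a1 at 1121, 184 and 1254 against 881, 1936 and 524 and Col3a1 at 1439, 473 and 148 against 240.2, 559 and 179.5. The log2 fold change of Col1a1 was -0.59 with a 95% interval of -5.34 to 4.15, and without RACVEC 2 its estimate was 0.30.

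Akt-RACVECs against RACVECs asks what active Akt adds to cells that already carry the Ets factors. Of the 10 fibrillar genes, 1 had a positive and 9 a negative log2 fold change, and of the 6 basement membrane genes 3 were positive, Col4a1 and Col4a2 among them, and 3 negative, with Col4a5 at -0.26, Col4a6 at -0.52 and Col15a1 at -3.02. By limma 0 of the 30 genes were called in either direction with all libraries in the fit, against 0.221% higher and 0.0401% lower of all genes. At an unadjusted p below 0.05 and past the same fold, 4 were higher and 8 lower, against 4.79% and 5.24% of all genes. By the criterion of the study's methods, as computed here, 0 of 35 were called in either direction, against 1.62% and 1.81% of all genes. The study itself names Col18a1 among the genes raised in Akt-RACVECs over RACVECs. The criterion as computed here did not reproduce that call. Col4a1 had an FPKM of 2172, 4247 and 4935 in Akt-RACVECs against 1296, 761 and 1075 in RACVECs (log2 fold change 1.81, adjusted p = 0.0755), and Col4a2 had 1352, 2589 and 3442 against 1020.4, 512 and 742 (log2 fold change 1.65, adjusted p = 0.102). Col18a1 had 889.5, 1915 and 753 against 113, 283 and 93.0, a log2 fold change of 2.91 (adjusted p = 0.171). The Akt-RACVEC libraries lay above the RACVEC libraries in all 3 genes, but none of the 3 passed the test with all libraries in the fit.

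On the other side, Col1a1 had an FPKM of 19.2, 1.35 and 0.31 in Akt-RACVECs against 1121, 184 and 1254 in RACVECs, a log2 fold change of -7.33 ± 2.26 (SE, adjusted p = 0.122). Col3a1 had 7.01, 14.0 and 0 against 1439, 473 and 148 (log2 fold change -6.56, adjusted p = 0.124), and Col1a2 had 12.8, 8.22 and 0 against 1221, 59.0 and 274 (log2 fold change -5.76, adjusted p = 0.247). The type VI chain Col6a2 had 2.74, 0 and 0 against 412, 12.8 and 170.4 (log2 fold change -6.00, adjusted p = 0.106). None of the 4 passed the test. None overlapped between the groups, which describes these libraries only, as the share of all genes without overlap was not counted. Without the 3 libraries that stood apart, 2 genes were called higher, Col4a1 (1.81 with an adjusted p of 0.0115) and Col4a2 (1.65 with an adjusted p of 0.0214), and 6 lower, against 1.97% and 1.62% of all genes. The 6 were Col1a1 (log2 fold change -7.33 with an adjusted p of 0.00187), Col3a1 (-6.56 with an adjusted p of 0.00429), Col1a2 (-5.76 with an adjusted p of 0.0216), Col6a1 (-6.54 with an adjusted p of 0.00416), Col6a2 (-6.00 with an adjusted p of 0.00736) and Col16a1 (-4.17 with an adjusted p of 0.00459). None of the 3 libraries belongs to either group, so leaving them out changed the estimate of the spread and the adjustment and not the fold changes. The SE of Col1a1 fell from 2.26 to 1.06, and the calls rest on that smaller estimate of the spread.

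In MACs without the Ets factors, no chain was called as changed with Akt when all libraries were in the fit. The marker genes of macrophages summed to 847, 10189 and 32105 FPKM in Akt-MACs against 3.64, 0.79 and 14.7 in MACs. Their part in this comparison and in the interaction below was not tested. Of the 30 genes, 0 were called higher and 0 lower in Akt-MACs against MACs by limma, against 2.59% and 0.214% of all genes, and 1 gene was called higher without MAC 3 (Col9a3, with 3.36% of all genes), without Akt-MAC 1 (Col4a6, with 4.54%) or without Akt-MAC 3 (Col28a1, with 1.22%). At an unadjusted p below 0.05 and past the same fold, 2 genes were higher and 0 lower, against 7.54% and 2.19% of all genes. By the criterion of the study's methods 2 of 42 were higher and 0 lower, against 0.754% and 0.288% of all genes. The 2 were the low genes Col11a2 and Col20a1, named after their values were seen, with Col20a1 at 7.57, 8.28 and 4.52 in Akt-MACs against 0.48, 0.8 and 2.11 in MACs. Col4a1 had an FPKM of 797, 491 and 883 in Akt-MACs against 349, 384 and 519.8 in MACs (log2 fold change 0.77, adjusted p = 0.529), and 1 library of each group crossed the other. Col1a1 had 556, 271 and 971 against 881, 1936 and 524, with overlapping libraries (log2 fold change -0.87, 95% interval -5.61 to 3.87). The Akt effect in RACVECs was set against that in MACs by an interaction contrast, which called 0 of the 30 genes, against 0.00668% higher and 0.0936% lower of all genes, with 1 higher and 4 lower at an unadjusted p below 0.05, against 3.09% and 7.04% of all genes. The criterion of the study's methods has no form for an interaction. The difference of the 2 effects was largest upward in Col18a1, at 3.79 (adjusted p = 0.277), and was -6.46 in Col1a1 (adjusted p = 0.437), so a difference between the Akt effects in the 2 cell types was not shown for any chain.

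**Figure D4:**
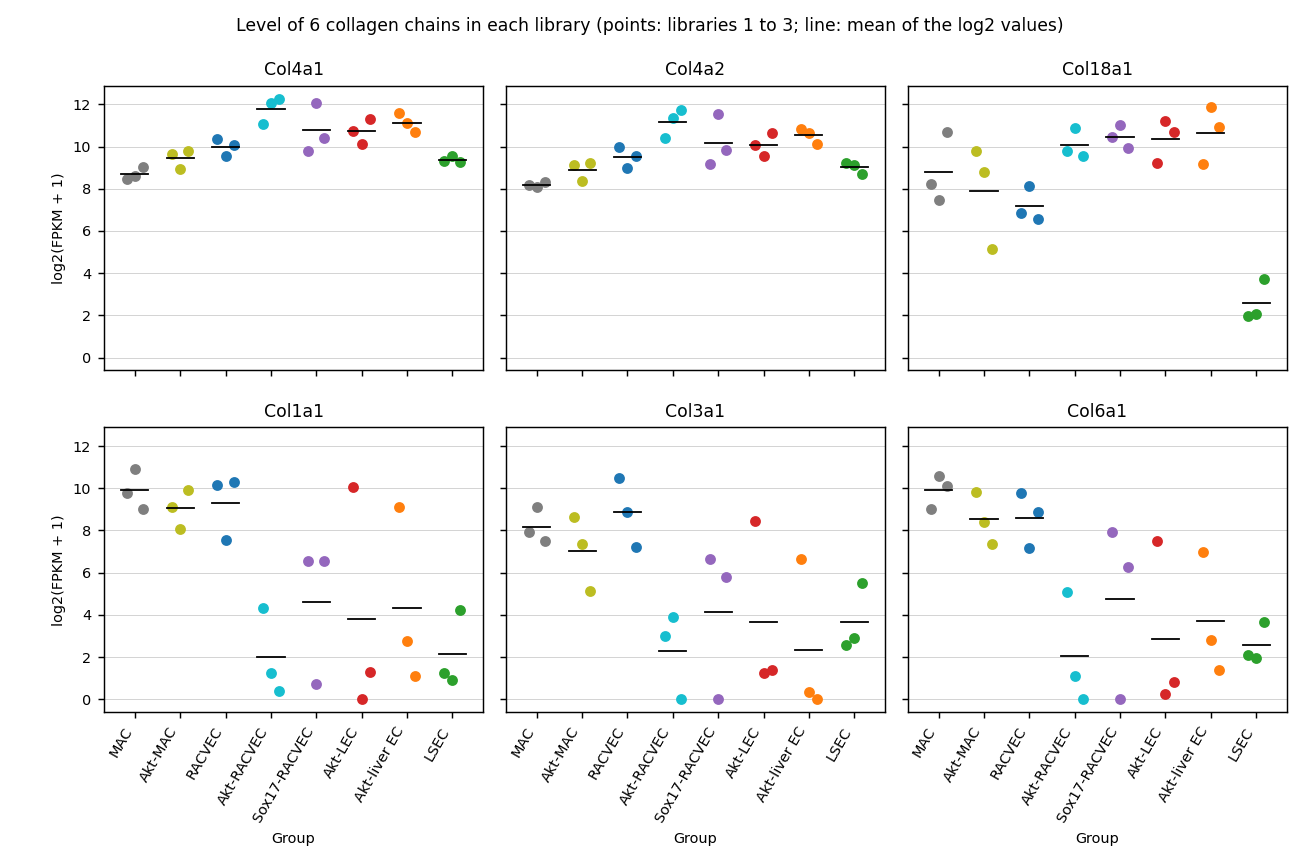
FPKM of Col4a1, Col4a2, Col18a1, Col1a1, Col3a1 and Col6a1 in each library, on a log2(FPKM + 1) axis, by group, with a line at the mean of the 3 log2 values. Col4a1 reaches 2172 to 4935 in the Akt-RACVECs, and Col1a1 lies at most at 19.2 there against at least 184 in the RACVECs.

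Sox17-RACVECs against RACVECs follows another way of modifying the same cells, and in it Col18a1 was the single collagen gene higher at an unadjusted p below 0.05. It had an FPKM of 1401, 2072 and 982 in Sox17-RACVECs against 113, 283 and 93.0 in RACVECs, with no overlap, a log2 fold change of 3.29 ± 1.02 (SE, adjusted p = 0.476). By limma 0 genes were called higher and 0 lower, against 0% and 0.00668% of all genes, with 1 higher and 4 lower at an unadjusted p below 0.05, against 1.32% and 3.38%. Negative log2 fold changes reached -4.75. By the criterion of the study's methods 1 of 34 was higher (Col18a1) and 1 lower (Col27a1), against 0.338% and 0.684% of all genes. Without the 3 libraries that stood apart 0 were called in either direction, against 0.0334% and 0.0334% of all genes. Col18a1 then had a log2 fold change of 3.02 with an adjusted p of 0.616. Of the 10 fibrillar genes 9 had a negative log2 fold change, and 1 of them had an unadjusted p below 0.05. Col3a1 had 98.8, 0 and 53.7 against 1439, 473 and 148 (adjusted p = 0.7) and Col1a1 92.3, 0.67 and 92.1 against 1121, 184 and 1254 (adjusted p = 0.755), with the lowest value of both in the library labelled Sox17-RACVEC 2. The transduced gene itself was listed at 0 in the RACVECs, at 5.09, 40.1 and 200.1 in the Sox17-RACVECs and at 12.0, 83.5 and 82.2 in the Akt-RACVECs, which received no Sox17 virus.

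Set against Akt-RACVECs, the Sox17-RACVECs showed 0 genes called higher and 0 lower by limma, against 0% and 0% of all genes, with 0 higher and 2 lower at an unadjusted p below 0.05, against 1.24% and 2.79%. The criterion of the study's methods called 0 of 30 in either direction, against 0.184% and 0.469% of all genes. This comparison turned on the library labelled Sox17-RACVEC 2. That library was set apart in part because its nearest library was Akt-RACVEC 3, so leaving it out favours a difference between these 2 groups. The calls without it rest on 2 Sox17-RACVEC libraries and are given as a description only. Without that library alone 2 genes were called lower, Col4a1 and Col4a2, against 1.53% of all genes. Without all 3 libraries that stood apart 2 genes were called higher and 2 lower, against 1.32% and 1.97% of all genes. Col4a1 was at 877, 4355 and 1373 in Sox17-RACVECs against 2172, 4247 and 4935 in Akt-RACVECs (log2 fold change -1.04 with all libraries, -1.70 with an adjusted p of 0.0292 without the 3). Col4a2 was at 585, 2949.8 and 919 against 1352, 2589 and 3442 (-0.97 and -1.64 with an adjusted p of 0.0403). The higher pair was Col1a1, at 92.3, 0.67 and 92.1 against 19.2, 1.35 and 0.31 (2.62 and 4.56 with an adjusted p of 0.045), and Col6a1, at 239.8, 0 and 76.6 against 33.1, 1.16 and 0 (2.66 and 5.03 with an adjusted p of 0.0306). In all 4 genes the libraries labelled Sox17-RACVEC 1 and 3 lay on one side of the Akt-RACVECs and the library labelled Sox17-RACVEC 2 lay among them.

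MACs against cultured primary ECs, for which Akt-LECs and Akt-liver ECs were averaged with equal weight, gives the distance between the starting cells and endothelium. Of the 10 fibrillar genes, 5 were called higher in MACs, as were 5 of the 14 other collagens, and Col4a1 and Col4a2 were called lower. The other 5 fibrillar genes were not called, and 1 of them, Col11a2, had a negative log2 fold change (-0.19). Of the 30 genes, 10 were called higher in MACs and 3 lower, against 7.51% and 7.3% of all genes, and the median log2 fold change was 1.75 against -0.03 over all genes. The 10 were 5 fibrillar genes (Col1a1, Col3a1, Col5a1, Col5a3 and Col27a1) and 5 others (Col6a1, Col6a2, Col9a3, Col16a1 and Col28a1), and the 3 were Col4a1, Col4a2 and Col13a1. By the criterion of the study's methods 2 of 42 were higher (Col5a1 and Col16a1) and 2 lower (Col4a1 and Col4a2), against 2.28% and 6.68% of all genes. Akt-LECs and Akt-liver ECs also differ from MACs in carrying Akt and in the EC medium with SB431542. Neither can be told apart from the type of cell here.

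Col4a1 had an FPKM of 349, 384 and 519.8 in MACs, 1732, 1122 and 2498 in Akt-LECs and 3102, 2192 and 1662 in Akt-liver ECs, with a log2 fold change of -2.24 ± 0.40 (SE, adjusted p = 0.00115). Col4a2 had 289, 273 and 320.0 in MACs, 1062, 762 and 1591 in Akt-LECs and 1842, 1576 and 1125 in Akt-liver ECs, with -2.11 ± 0.41 (SE, adjusted p = 0.00192). The MAC libraries lay below all 6 libraries of cultured ECs in both. Col13a1, a transmembrane collagen, was at 1.42, 0 and 0 in MACs, 59.8, 1.04 and 21.2 in Akt-LECs and 7.32, 19.8 and 0.42 in Akt-liver ECs, with a log2 fold change of -2.80 ± 0.93 (SE, adjusted p = 0.0404) with overlap at the low end. Of the genes called higher in MACs, Col5a3 had 44.8, 92.1 and 319 in MACs against 12.2, 4.76 and 6.26 in Akt-LECs and 9.34, 0.68 and 0.31 in Akt-liver ECs, with 4.52 ± 1.03 (SE, adjusted p = 0.00572). Col16a1 had 89.6, 147 and 186 in MACs against 38.3, 0.97 and 0.76 in Akt-LECs and 16.6, 3.41 and 1.33 in Akt-liver ECs, with 4.66 ± 1.01 (SE, adjusted p = 0.00414). Col28a1 had 30.7, 95.2 and 28.2 against 1.24, 0 and 0 in Akt-LECs and 0 in every Akt-liver EC library, with 5.29 ± 1.09 (SE, adjusted p = 0.00295). These 3 genes did not overlap. Nor did Col6a1, at 520.4, 1520.0 and 1117 in MACs against 177, 0.19 and 0.76 in Akt-LECs and 124, 6.00 and 1.59 in Akt-liver ECs, or Col6a2, at 233, 986 and 336 in MACs against 102, 0 and 0 in Akt-LECs and 81.7, 1.32 and 0.51 in Akt-liver ECs. Col27a1 had 4.66, 7.96 and 24.2 in MACs against 3.38, 0.57 and 1.12 in Akt-LECs and 3.72, 1.08 and 0.69 in Akt-liver ECs and also did not overlap. Col9a3 had 5.68, 1.38 and 62.2 in MACs against 0.46, 2.88 and 1.10 in Akt-LECs and 1.07, 0.77 and 0.92 in Akt-liver ECs, with MAC 2 inside the range of the cultured ECs.

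Col1a1, Col3a1 and Col5a1 overlapped through the libraries that stood apart. Col1a1 was at 881, 1936 and 524 in MACs, 1065, 0 and 1.44 in Akt-LECs and 556, 5.66 and 1.14 in Akt-liver ECs, with a log2 fold change of 5.86 ± 1.96 (SE, adjusted p = 0.0418). Col3a1 was at 240.2, 559 and 179.5 in MACs, 349.8, 1.33 and 1.57 in Akt-LECs and 100.1, 0.25 and 0 in Akt-liver ECs, with 5.18 ± 1.77 (SE, adjusted p = 0.0454). Col5a1 was at 189.6, 389 and 403 in MACs, 215, 8.08 and 81.9 in Akt-LECs and 106, 33.9 and 15.1 in Akt-liver ECs, with 2.75 ± 0.76 (SE, adjusted p = 0.0165). In Akt-LEC 1 and Akt-liver EC 1 the Col1a1 FPKM was at least 556, and in the other 4 libraries of cultured ECs it was at most 5.66. Pdgfrb, a marker of pericytes and fibroblasts, was at 147 and 73.2 in those 2 libraries. The part of the mesenchymal, macrophage and epithelial markers in their collagen levels was not tested. Without them and the library labelled Sox17-RACVEC 2, 13 genes were called higher in MACs and 2 lower, against 9.83% and 7.39% of all genes, with Col1a1 at 8.63 with an adjusted p of 3.54e-05 and Col3a1 at 7.45 with an adjusted p of 0.000134. Newly called were Col1a2 (8.71 with an adjusted p of 0.000165), Col11a1 (3.69 with an adjusted p of 0.00493), Col15a1 (5.05 with an adjusted p of 0.0355) and Col7a1 (2.05 with an adjusted p of 0.0422). Col9a3 (2.13 with an adjusted p of 0.0861) and Col13a1 (-2.17 with an adjusted p of 0.122) were no longer called, and the other 11 kept their calls, Col5a3 at 5.16 and Col6a2 at 8.28 among them. Leaving out single libraries of these groups lowered the number called higher to 6 without Akt-liver EC 3 (5.80% of all genes), Akt-LEC 3 (5.93%) or MAC 2 (7.89%) and to 5 without MAC 3 (5.26%), and a fit of only the compared groups gave 3 (3.29%).

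RACVECs and Akt-LECs were compared as reprogrammed and primary endothelium, and the calls depended on Akt-LEC 1 and Akt-liver EC 1 together, with 6 genes called without both (0.448% of all genes) and 0 without Akt-LEC 1 alone (0.107%). Akt-LECs carry active Akt and RACVECs do not, so that Akt cannot be told apart from the origin of the cells here. With all libraries, limma called 0 genes higher and 0 lower in RACVECs, against 0.0267% and 0.234% of all genes, with 5 higher and 3 lower at an unadjusted p below 0.05, against 3.68% and 4.11%. The criterion of the study's methods called 0 of 39 in either direction, against 1.23% and 0.855% of all genes. Without Akt-LEC 1, Akt-liver EC 1 and the library labelled Sox17-RACVEC 2, 6 genes were called higher in RACVECs and 0 lower, against 1.32% and 1.06% of all genes. They were Col1a1, Col1a2, Col3a1, Col6a1, Col6a2 and Col16a1. Col1a1 was at 1121, 184 and 1254 in RACVECs against 1065, 0 and 1.44 in Akt-LECs, a log2 fold change of 5.54 ± 2.26 (SE, adjusted p = 0.347) with all libraries and 8.68 with an adjusted p of 0.00136 without the 3. Col3a1 was at 1439, 473 and 148 against 349.8, 1.33 and 1.57 (5.19 and 7.57 with an adjusted p of 0.0049), and Col6a1 at 883, 142 and 470.3 against 177, 0.19 and 0.76 (5.76 and 8.08 with an adjusted p of 0.00251). For Col1a2, Col6a2 and Col16a1 the log2 fold changes without the 3 libraries were 8.09 with an adjusted p of 0.00909, 6.63 with an adjusted p of 0.00972 and 4.70 with an adjusted p of 0.00587. Col18a1 stood lower in RACVECs, at 113, 283 and 93.0 against 589, 2349 and 1673 with no overlap, with a log2 fold change of -3.19 ± 1.02 (SE, adjusted p = 0.208) that did not pass the test.

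Between the 2 kinds of cultured ECs no chain was called. Limma called 0 higher in Akt-LECs and 0 lower, against 0% and 0.0134% of all genes, with 1 higher and 0 lower at an unadjusted p below 0.05, against 1.12% and 1.67%. The criterion of the study's methods called 0 of 38 in either direction, against 0.164% and 0.379% of all genes, and without the 3 libraries that stood apart limma again called 0 in either direction, against 0.107% and 0.134%. The single gene at an unadjusted p below 0.05 was Col8a1, a short-chain collagen of vessel walls and of the corneal basement membrane, with an FPKM of 132, 48.8 and 629 in Akt-LECs against 96.9, 3.58 and 1.39 in Akt-liver ECs and overlapping libraries, a log2 fold change of 3.97 ± 1.85 (SE, adjusted p = 1). Col4a1 was at 1732, 1122 and 2498 against 3102, 2192 and 1662, with a log2 fold change of -0.41 and a 95% interval of -1.38 to 0.57.

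Akt-liver ECs against LSECs sets cultured, Akt-transduced liver endothelium beside cells sorted straight from the organ. Col18a1 and the type IV chains Col4a1, Col4a2 and Col4a5 were higher in the cultured cells, Col18a1 by far the most, and Col13a1 was higher in the sorted cells. Of the 30 genes, 6 passed as higher in the cultured cells and 1 as lower, against 14.1% and 12.9% of all genes, and the median log2 fold change was 0.93 against 0.08. With each library scaled by its median shift the split was 6 and 2, against 12.9% and 14.3%. By the criterion of the study's methods 2 of 39 were higher (Col4a2 and Col4a5) and 3 lower (Col13a1, Col17a1 and Col27a1), against 6.12% and 10.8% of all genes. Of the 6 basement membrane genes, 4 were called higher, and the fibrillar Col5a1 and the transmembrane Col23a1 completed the 6.

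Col18a1 had an FPKM of 586, 3734 and 1939 in Akt-liver ECs and 2.98, 3.24 and 12.4 in LSECs, a log2 fold change of 8.06 ± 1.02 (SE, adjusted p = 7.39e-06). It has 2 RefSeq transcripts in the tables. In the 7 other groups one of them carried at least 99.0% of the Col18a1 FPKM, whereas in LSECs the other carried 89.1%, with 2.70, 1.93 and 11.9 against 0.28, 1.31 and 0.44. The tables do not tie either transcript to one of the start sites printed above, and the split rests on FPKM of a few units. The transcript that led in LSECs was highest in LSEC 3, where hepatocyte markers were also highest, at sums of 3617, 2435 and 14575 in the 3 LSEC libraries. The part of hepatocytes in this split was not tested. Col4a1 had 3102, 2192 and 1662 against 639, 747 and 608, with 1.76 ± 0.47 (SE, adjusted p = 0.00693), and Col4a2 had 1842, 1576 and 1125 against 596, 561 and 409, with 1.52 ± 0.47 (SE, adjusted p = 0.0171). Col4a5 had 44.6, 28.6 and 31.9 against 0, 0 and 0.64, with 4.91 ± 0.83 (SE, adjusted p = 0.000182). No library of one group entered the range of the other in any of these 4 genes. Even so, Col4a1 and Col4a2 were the highest collagens of LSECs, at 665 ± 72.9 (SD, n = 3) and 522 ± 99.4 (SD, n = 3).

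Col13a1 was next among the collagens of LSECs and was the chain called lower in Akt-liver ECs. It had an FPKM of 7.32, 19.8 and 0.42 in Akt-liver ECs against 301, 404 and 282 in LSECs, a log2 fold change of -5.70 ± 1.07 (SE, adjusted p = 0.00051). In the groups that descend from MACs it was at most 10.9, and the highest cultured EC library, Akt-LEC 1, had 59.8. Col23a1, another transmembrane collagen, had 28.2, 446 and 490.3 against 0.77, 0.99 and 2.01, with 6.40 ± 2.11 (SE, adjusted p = 0.0252), and the gene varied widely among replicates elsewhere, at 196, 7.02 and 1029 in Akt-RACVECs and 49.9, 767 and 72.1 in Akt-LECs. Col5a1 had 106, 33.9 and 15.1 against 1.34, 1.22 and 3.18, with 3.81 ± 0.87 (SE, adjusted p = 0.00247). The calls of Col4a2 and Col23a1 depended on single libraries. Col4a2 was lost without Akt-liver EC 1 or LSEC 3, and Col23a1 without Akt-liver EC 2, Akt-liver EC 3 or any one LSEC library. Without the 3 libraries that stood apart, 6 genes passed as higher and 3 as lower, against 13.5% and 13.7% of all genes, the 3 being Col13a1, Col27a1 (-2.34 with an adjusted p of 0.0427) and Col3a1 (-3.49 with an adjusted p of 0.0374). Without Akt-liver EC 1 alone 2 were called lower, against 13% of all genes.

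The LSEC libraries also listed markers of other liver cells. Hepatocyte markers summed to between 2435 and 14575 FPKM, highest in LSEC 3, macrophage markers to between 7327 and 11747 and red cell markers to between 11196 and 12805. The markers of hepatic stellate cells, which make fibrillar collagens, summed to between 197 and 249, with Lrat between 52.7 and 59.0, Colec11 between 111 and 155, Des between 14.2 and 18.7, Reln between 8.26 and 12.6, Hand2 between 1.90 and 3.95, Lhx2 between 2.84 and 4.19 and Ngfr between 1.97 and 2.98. In Akt-liver ECs the same list summed to 293.5, 137 and 12.8, with Lrat at 0 in every library and Des at 267 in library 1. The FPKM of Col1a1 was 1.38, 0.87 and 17.9, of Col1a2 4.50, 4.55 and 22.7 and of Col3a1 5.0, 6.36 and 43.8 in the 3 LSEC libraries, each highest in LSEC 3. Col18a1, at 2.98, 3.24 and 12.4, was also highest there, whereas Col4a1 and Col4a2 were lowest there. The part of other liver cells in the collagen levels of LSECs was not tested. In Akt-liver ECs the mesenchymal markers summed to between 2202 and 2754, of which Thy1 made up 2212 and 2316 in libraries 2 and 3, where Col1a1 was at 5.66 and 1.14.

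Chains that assemble into 1 molecule were compared by their ratio within a library. The 2 type IV chains kept nearly the same proportion in every library: the ratio of Col4a1 to Col4a2 was between 1.07 and 1.68 in 24 libraries, with a median of 1.47, while the FPKM of Col4a1 spanned 349 to 4935. The ratio of Col1a1 to Col1a2, which form type I collagen, was between 0.164 and 5.84 over the 18 libraries in which both reached 1 FPKM, and varied even at high levels, with Col1a1 at 556, 271 and 971 and Col1a2 at 95.2, 129 and 1756 in Akt-MACs. The ratio of Col6a1 to Col6a2 was between 1.24 and 28.3 over 18 libraries and that of Col5a1 to Col5a2 between 0.0350 and 17 over 23. Across the 24 libraries the log2 levels of Col4a1 and Col4a2 had a Pearson r of 0.992, those of Col1a1 and Col1a2 0.963, those of Col6a1 and Col6a2 0.944 and those of Col5a1 and Col5a2 0.627. These coefficients describe points that share library and group, and a pair that is low in some groups and high in others has a high coefficient whatever happens within a group.

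**Figure D5:**
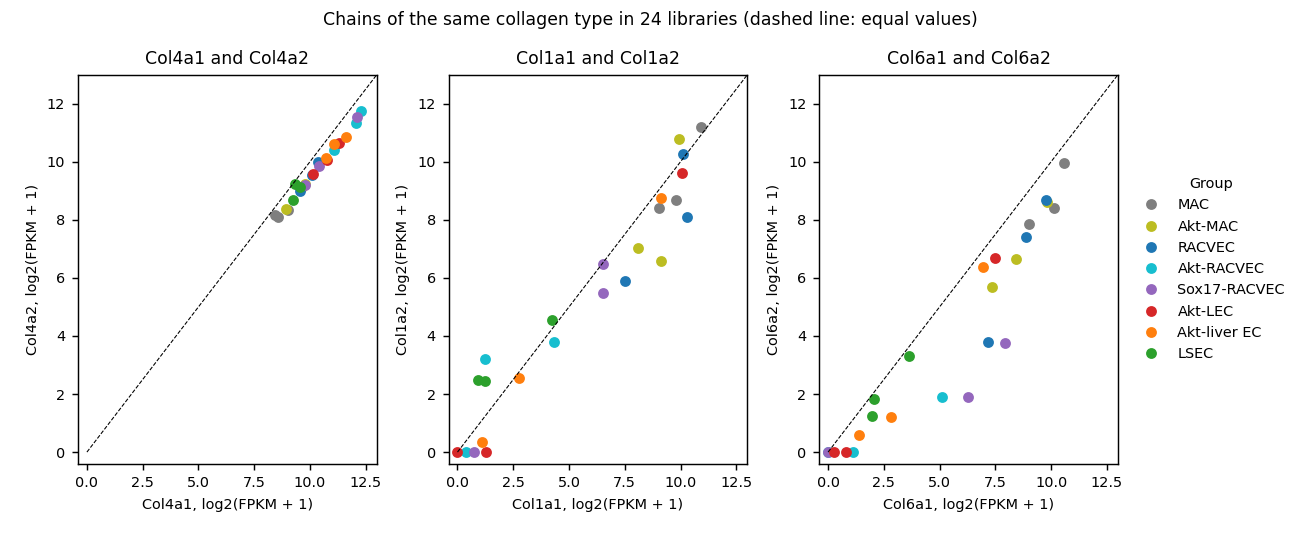
FPKM of Col4a2 against Col4a1, of Col1a2 against Col1a1 and of Col6a2 against Col6a1 in the 24 libraries, coloured by group, on log2(FPKM + 1) axes with a dashed line at equal values. The type IV points lie along a line parallel to the dashed one, with ratios between 1.07 and 1.68, and the other pairs scatter more widely.

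The enzymes and receptors that serve collagens were taken from 3 lists, of which 20 of 21 genes for modification and folding, 11 of 13 for processing and cross-linking and 6 of 9 receptors were tested. In Akt-RACVECs against Akt-MACs, where 6.15% of all genes were called higher and 13.4% lower, 4 folding genes were called higher and 3 lower. The higher ones were P4ha2 (log2 fold change 1.35, adjusted p = 0.039) and P4hb (1.24, adjusted p = 0.00668), subunits of prolyl 4-hydroxylases, and Colgalt1 (1.11, adjusted p = 0.00137) and Plod3 (1.00, adjusted p = 0.00572), which modify lysines. The lower ones were P4ha3 (-3.25), Tmem38b (-1.36) and Creb3l1 (-3.46), a transcription factor of collagen genes. Of the processing genes 1 was higher, Loxl4 (2.87), and 4 were lower. Lox, the lysyl oxidase that cross-links collagen and elastin, had an FPKM of 25.7, 0 and 0 in Akt-RACVECs against 849, 235 and 768 in Akt-MACs, a log2 fold change of -7.49 ± 1.51 (SE, adjusted p = 0.00236). Loxl1 (-6.04), Loxl3 (-2.28) and Bmp1 (-2.17), the protease that removes the C-terminal propeptide of procollagens, were the others. Of the receptors 2 were lower, the kinase Ddr1 (-6.10) and the leukocyte receptor Lair1, which was listed at 0 in every Akt-RACVEC library. Without the 3 libraries that stood apart, the counts were those above except that 6 processing genes were lower, Adamts14 and Pcolce2 being added.

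In MACs against the cultured ECs, where 7.51% of all genes were higher and 7.3% lower, 2 folding genes were called higher and 0 lower, P3h2 (log2 fold change 3.05) and P4ha3 (2.52). Of the processing genes 5 were higher, led by Loxl1 (6.00), Pcolce (5.90), which enhances procollagen cleavage, Lox (4.72) and Loxl3 (2.23), and the tolloid protease Tll1 was lower (-4.43). The endocytic collagen receptor Mrc2 (5.05) and Ddr1 (2.84) were higher. Akt-LEC 1 and Akt-liver EC 1 also stood apart here, with Loxl1 at 262, 0.49 and 0 in Akt-LECs and 101, 0 and 0 in Akt-liver ECs and Pcolce at 676, 1.32 and 14.3 and 344, 3.07 and 1.92. Without them and the library labelled Sox17-RACVEC 2, 3 folding genes, 8 processing genes and 4 receptors were higher and Tll1 was still lower, with Loxl1 at 8.41 with an adjusted p of 2.15e-05 and Pcolce at 8.15 with an adjusted p of 0.000496. In Akt-liver ECs against LSECs, where 14.1% of all genes were higher and 12.9% lower, 6 folding genes were higher, led by Fkbp10 (5.32), P3h4 (4.86), Plod2 (4.65) and P3h3 (2.69), and Colgalt2 was lower (-3.55). Of the processing genes Tll1, which was listed at 0 in every LSEC library, Bmp1 (4.98) and Loxl4 (2.61) were higher and Pcolce2 lower (-5.13). Of the receptors Ddr1 was higher (3.92), and Lair1 (-5.38) and the integrin chain Itga1 (-4.99) were lower. Without the 3 libraries Pcolce was also called lower (-5.66 with an adjusted p of 0.0115) and no other count of the lists moved. In Akt-MACs against MACs Lair1 was the only gene of the 3 lists called, where 2.59% of all genes were higher and 0.214% lower, at 3.16, 61.1 and 137 against 0, 0 and 1.92 (log2 fold change 4.52), in the libraries whose macrophage markers are given above. No gene of the lists was called in the other comparisons. Serpinh1, the collagen chaperone Hsp47, was not called in any comparison and had an FPKM of 2891, 3756 and 1978 in Akt-RACVECs, 2311, 1156 and 1946 in Akt-MACs and 442, 473 and 551 in LSECs. P4ha1, another prolyl 4-hydroxylase subunit, was not called either.

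The remaining 7 tested genes were low or high in single libraries and were called in no comparison with all libraries in the fit. Col11a1 was highest in MAC 2, at 52.5, Col7a1, the chain of the anchoring fibrils of skin, in MAC 2 at 27.2, and Col26a1 in MAC 2 at 27.5. Col24a1 reached 16.4 in RACVEC 2, Col11a2 18.5 in Akt-RACVEC 3, Col20a1 12.8 in RACVEC 3 and Col22a1 17.7 in Akt-LEC 3. The 12 genes under the limit for testing were Col2a1, Col4a3, Col4a4, Col6a4, Col6a5, Col6a6, Col8a2, Col9a2, Col10a1, Col17a1, Col19a1 and Col25a1, and their highest value in any library was 9.84 (Col10a1 in MAC 1). Of the 42 genes, 8 were listed above 0 in all 24 libraries.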

How the data were processed

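The authors made TruSeq libraries, sequenced paired 51 bp reads, mapped them with TopHat (default settings) to mm9 and ran Cufflinks with upper-quartile normalisation and correction for sequence-specific bias. They deposited FPKM with 2 decimals for 27583 RefSeq transcripts in each library. Versions of these tools and of the annotation are not given in the sources used here. The FPKM tables hold no counts, so depth is unknown, a value of 0 gives no detection limit, and precision is that between 3 libraries. The summed FPKM was 1689486 to 2317294.

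Transcripts were joined to symbols for 26934 of the 27583, the other 649 were kept apart, and FPKM were summed to 22282 genes. The 42 collagen genes had 47 transcripts. Groups, taken from the labels, were compared on log2(FPKM + 1) in R 4.3.3 by limma 3.58.1, in 1 fit of 8 groups with the variance trended on the mean and two-sided p-values adjusted by Benjamini-Hochberg over 14964 genes with a mean of at least 1 FPKM. A version of the study's criterion on averaged FPKM was computed beside it, with 1 added to each mean by choice here and without assuming equal variances, over genes above 0 in any library compared. It called fewer genes than the study reports for RACVECs against MACs and for Sox17-RACVECs against RACVECs. Its counts are therefore not those of the study. Levels, ratios and motifs used Python 3.11.15, numpy 2.4.6, pandas 2.3.3 and scipy 1.17.1, and figures used matplotlib 3.10.9. The limma script was tested on simulated data. Alternatives were pseudocounts of 0.1 and 10, no filter, a mean of at least 10, a fit of the compared groups, a replicate block, scaling by median shift, the highest transcript of each gene and leaving out each library. Leaving out Akt-LEC 1 with Akt-liver EC 1, and both with Sox17-RACVEC 2, was added after seeing the data.

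Values per library are given for collagen genes called in a comparison or among the 15 highest group means and for Col18a1 and Col8a1. From the enzyme and receptor lists, up to 4 called genes in each direction are named with Serpinh1, Lox and P4ha1. Genes, classes, lists and markers were chosen with earlier results of these data known.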

Additional observations from a re-analysis of the deposited data

How the results depend on the processing

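Counts below are of collagen genes called. Of 46 values of single genes, 41 kept their side of the threshold at a pseudocount of 0.1, 40 at 10 and 28 in a fit of only the compared groups, and the losses of that fit were not traced to a cause. With 1 library left out, 235 of 315 did so, and 1 changed sign, Col1a1 in RACVECs against MACs (log2 fold change -0.59 with all libraries, -1.08 to 0.30 with 1 left out, the highest without RACVEC 2). Calls kept in every alternative limma fit numbered 3 of 15 in Akt-RACVECs against Akt-MACs (Col4a1, Col4a2 and Col16a1), 5 of 13 in MACs against cultured ECs (Col4a1, Col4a2, Col5a3, Col16a1 and Col28a1) and 5 of 7 in Akt-liver ECs against LSECs (Col4a1, Col4a5, Col5a1, Col13a1 and Col18a1). With no filter, 1 gene was lower in RACVECs against MACs (Col8a2) and 2 were lower in Akt-liver ECs against LSECs. Scaling by median shift also gave 2 there. With only the compared groups fitted, 3 were lower in Akt-RACVECs against Akt-MACs, 3 higher in MACs against cultured ECs and 2 lower in Akt-liver ECs against LSECs. With the replicate number as a block, 1 was lower in Akt-RACVECs against RACVECs (Col6a2) and no other count moved by over 1.5 times. The numbers were not taken to pair the libraries. In 0 of 11 pairs of groups did all 3 same-numbered libraries deviate together from their group means with r above 0.1 (r from -0.488 to 0.571). This does not exclude isolates shared between groups. The criterion of the study's methods gave 1 higher and 1 lower in RACVECs against MACs and in Sox17-RACVECs against RACVECs, 2 higher in Akt-MACs against MACs, 0 higher and 0 lower in Akt-RACVECs against Akt-MACs, 2 higher and 2 lower in MACs against cultured ECs, and 2 higher and 3 lower in Akt-liver ECs against LSECs, with the shares of all genes given above. Without Akt-LEC 1 and Akt-liver EC 1, 6 were higher in RACVECs against Akt-LECs and 2 lower in Akt-liver ECs against LSECs. Without Sox17-RACVEC 2 as well these were 6 and 3, with 2 higher and 6 lower in Akt-RACVECs against RACVECs and 2 higher and 2 lower in Sox17-RACVECs against Akt-RACVECs. With 1 library left out, the number lower in Akt-RACVECs against Akt-MACs was 5 to 10 (5 without Akt-MAC 1 or Akt-MAC 2) and the number higher 2 to 3 (3 without Akt-MAC 1, which added Col18a1). The number higher in MACs against cultured ECs was 5 to 12 (5 without MAC 3) and the number lower 2 to 3. In Akt-MACs against MACs 0 to 1 were higher, in Akt-liver ECs against LSECs 1 to 2 were lower (2 without Akt-liver EC 1) and 4 to 6 higher, and in Sox17-RACVECs against Akt-RACVECs 0 to 2 were lower (2 without Sox17-RACVEC 2). Depth is unknown, so genes of a few FPKM, and every value of 0, cannot be given a counting error.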
